A study of Mus musculus with 39 samples.

Results

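The Wnt ligands that the mouse gastrula is known to express were followed through bulk RNA sequencing of *Stat3* null and wild-type (WT) epiblasts. The group held 8 of the 47643 genes listed, picked by their symbols, with earlier results of these data known. They were *Wnt3*, *Wnt3a*, *Wnt8a*, *Wnt5a*, *Wnt5b*, *Wnt11*, *Wnt2b* and *Wnt6*, and all 8 were found in both count tables. Every library of the first table held the RNA of 1 epiblast from intercrosses of *Stat3* heterozygous mice on a CD1 background, genotyped on extraembryonic tissue, with the extraembryonic ectoderm and visceral endoderm taken off by hand. At embryonic day (E) 5.5 the null libraries numbered 4 and the WT libraries 2, at E6.5 they numbered 8 and 9, and at E7.5 they numbered 3 and 9. In the null allele, neomycin resistance takes the place of exons 20 to 22 in every cell of the embryo, so the remaining exons could still give *Stat3* reads. The second table held 4 epiblast stem cell (EpiSC) lines, null lines 2 and 6 and WT lines 8 and 13, each derived from E6.5 or E7.5 epiblasts. All 4 lines were grown in N2B27 with FGF2, Activin A and XAV-939, a tankyrase inhibitor that stabilises Axin and holds down the β-catenin response to Wnt. Each EpiSC library was 1 line of its genotype, and the study's own labels do not say which epiblast libraries shared a litter.

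Wnt proteins are lipid-modified secreted ligands that bind Frizzled receptors. With the Lrp5 and Lrp6 co-receptors they stabilise β-catenin, which then acts through TCF and LEF factors, and with Ror receptors and planar polarity proteins they steer cell movement. In the mouse gastrula *Wnt3* is needed to form the primitive streak, *Wnt3a* maintains the later streak and its paraxial mesoderm, *Wnt8a* is expressed in the streak, and *Wnt5a*, *Wnt5b* and *Wnt11* are the ligands most tied to the movements of mesoderm cells. *Wnt6* is known from extraembryonic and surface ectoderm.

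Expression is given as counts in each 1000000 (CPM) of a library's total. A floor of 3 counts, taken here for a listed 0, was 0.0380 to 0.131 CPM in epiblast libraries. This floor allows for the sampling of reads alone, and folds given as at least set a group mean against it. *Wnt2b*, for example, was 0 in E6.5 WT 3, where the other E6.5 WT epiblasts had 119 to 457 counts. Total counts ran from 22941210 to 79013960 per epiblast and from 63445877 to 127583699 per EpiSC line. *Stat3* itself stood at 1.22 to 1.48 CPM in the 3 E7.5 null epiblasts and at 4.80 to 25.3 CPM in the 9 WT, at 1.41 to 7.59 against 5.84 to 27.2 CPM at E6.5, at 9.21 to 22.6 against 39.3 and 49.4 CPM at E5.5, and at 3.17 and 3.52 against 17.8 and 23.0 CPM in EpiSCs. A few libraries stood apart. E5.5 null 1 had 24 counts of *Pou5f1* and 0 of *Nanog*, the defining epiblast genes, and 983 CPM over 10 extraembryonic ectoderm markers, while E6.5 null 1 had 672 CPM of the same list. E6.5 null 2 and 3 detected 15531 and 15171 genes against a median of 20669 in epiblasts. E6.5 WT 3 carried 5338 CPM over 10 visceral endoderm markers, against a median of 167 CPM in its group. E6.5 null 3, 4 and 8 carried 6367, 4637 and 4066 CPM of that list, against a median of 803 CPM in theirs. The E5.5 libraries other than null 1 carried 5217 to 11199 CPM of it. E7.5 WT 3 summed to 6058 CPM over 8 epiblast markers, where its group's median was 2160 CPM. At E6.5, null 1 to 3 and WT 1 to 3 exceeded 40000000 counts, while null 4 to 8 and WT 4 to 9 fell short of it.

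RefSeq start-site windows on GRCm38.p6 were at hand for 6 of the 8 ligands (9 windows). *Wnt3* and *Wnt3a* are shown because these close relatives took opposite courses from E6.5 to E7.5, and the middle of 3 *Wnt5b* windows because it alone held the palindrome TTCNNNGAA bound by STAT factors. Each runs from 250 bases before the start site to 30 bases after it, on the gene's strand, with capitals marking TTCNNNGAA or a core of the TCF and LEF type, spelled as CTTTGAA or spelled as CTTTGTT or spelled as CTTTGAT or spelled as CTTTGTA, searched on both strands without overlap between the motifs. The windows are chr11:103773925-103774204 (plus strand) for *Wnt3*, chr11:59290722-59291001 (minus strand) for *Wnt3a* and chr6:119467182-119467461 (minus strand) for *Wnt5b*.
Wnt3: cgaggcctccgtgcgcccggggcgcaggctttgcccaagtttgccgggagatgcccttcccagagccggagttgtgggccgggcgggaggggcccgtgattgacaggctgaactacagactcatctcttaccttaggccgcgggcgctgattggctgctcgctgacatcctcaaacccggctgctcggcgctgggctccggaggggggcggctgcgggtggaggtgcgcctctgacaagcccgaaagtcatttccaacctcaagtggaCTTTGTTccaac
Wnt3a: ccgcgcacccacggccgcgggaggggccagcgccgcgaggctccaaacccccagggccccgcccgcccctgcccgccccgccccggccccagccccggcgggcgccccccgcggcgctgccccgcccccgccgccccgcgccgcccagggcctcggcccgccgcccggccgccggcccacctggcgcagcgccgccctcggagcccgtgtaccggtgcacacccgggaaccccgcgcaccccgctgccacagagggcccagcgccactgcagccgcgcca
Wnt5b: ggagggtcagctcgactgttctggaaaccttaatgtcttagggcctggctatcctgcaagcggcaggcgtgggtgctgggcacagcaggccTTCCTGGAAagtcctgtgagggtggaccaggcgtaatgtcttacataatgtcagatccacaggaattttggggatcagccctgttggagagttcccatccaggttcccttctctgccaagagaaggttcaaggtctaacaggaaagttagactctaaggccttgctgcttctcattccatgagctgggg

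In the *Wnt3* window CTTTGTT began at base 19, counted from 1 at the start site, and in the *Wnt5b* window the palindrome began 159 bases before the start. Over the full 300-base windows, 3 of 9 held a TCF-type core, the others being another *Wnt5b* window and a *Wnt11* window, against 16.9% of all 32851 RefSeq windows of that length, and 1 of 9 held TTCNNNGAA, against 8.3%. The *Wnt3a* window held neither. These are matches of letters, and no binding was measured.

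In WT epiblasts the make-up of the ligand transcripts changed with each day. In these bulk libraries fewer cells of a type and less RNA per cell cannot be told apart. Levels were compared between genes as reads per kilobase of exon and 1000000 counts (RPKM), and each ligand is given as its share of the summed RPKM of the 8. In E5.5 WT 1 *Wnt6* held 45.9% of the sum and *Wnt11* 22.6%, and in E5.5 WT 2 *Wnt11* held 50.7% and *Wnt6* 0%. At E6.5 the sum was made up mostly of *Wnt3* at 30.6% ± 8.73 (SD, n = 9), *Wnt5b* at 23.3% ± 9.86 and *Wnt8a* at 21.0% ± 15.2. By E7.5 *Wnt8a* had 43.8% ± 4.91 (SD, n = 9), *Wnt3a* 12.1% ± 4.63, *Wnt5b* 11.6% ± 2.69 and *Wnt5a* 10.2% ± 2.55, and *Wnt3* had 7.67% ± 13.7, of which the high value was 43.9% in E7.5 WT 3 and the median 2.74%. The summed level was 6.16 ± 2.65 RPKM (SD, n = 2), 10.9 ± 6.63 (n = 9) and 36.8 ± 12.4 RPKM (n = 9) at the 3 stages. The E7.5 null epiblasts summed to 13.7 to 28.3 RPKM and the E7.5 WT epiblasts to 6.68 to 52.1 RPKM. The low end of the WT range was WT 3, and every other E7.5 WT epiblast summed higher than each null epiblast. In null 1, 2 and 3 *Wnt3* held 31.0%, 33.6% and 25.3%, and *Wnt8a* held 20.04% to 32.7%. The null share of *Wnt3* therefore lay above that of each E7.5 WT epiblast except WT 3 and within the E6.5 WT range of 12.7% to 38.8%.

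**Figure D1:**
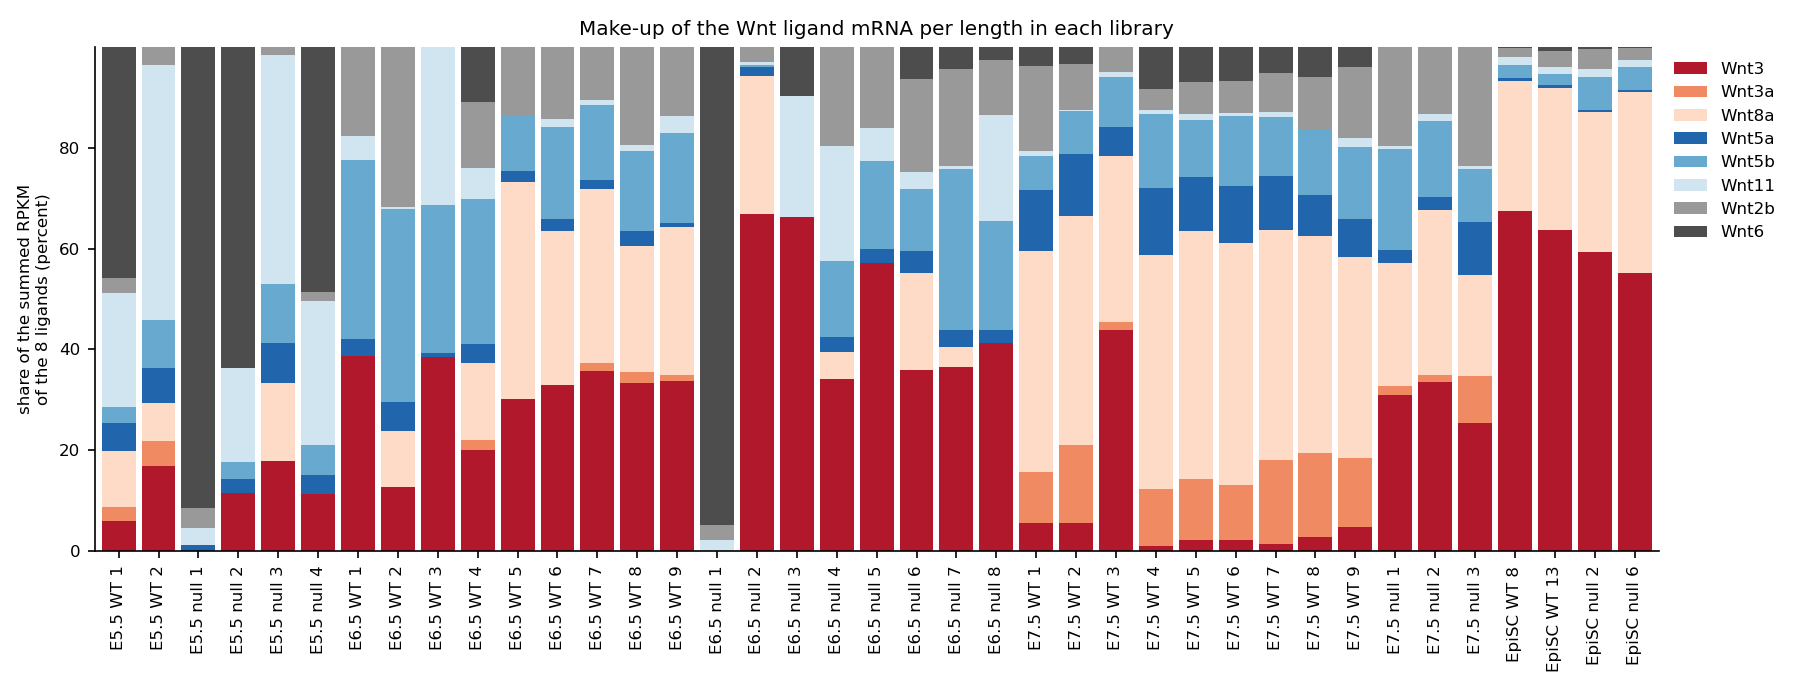
Stacked bars give the share, in percent, that each of the 8 ligands holds of their summed RPKM in each of the 39 libraries, ordered by stage and genotype. *Wnt8a* takes 33.0% to 49.1% in the 9 E7.5 WT epiblasts, *Wnt3* takes 25.3% to 33.6% in the 3 E7.5 null epiblasts, and *Wnt6* takes 91.6% and 94.8% in E5.5 null 1 and E6.5 null 1.

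The stage comparison in WT asked how the ligands changed as gastrulation set in. Between E6.5 and E7.5, 6 of the 8 ligands passed, 5 higher and 1 lower, where 8.83% of the 17191 genes tested were called (987 higher, 531 lower). The 8 are ligands of the gastrula chosen with earlier results of these data known, so the 2 shares are a description only. To pass, a gene had to change by more than 1 on the log2 scale in either direction, at a Benjamini-Hochberg adjusted p under 0.05 in edgeR's quasi-likelihood test. *Wnt3a*, *Wnt8a*, *Wnt5a*, *Wnt5b* and *Wnt6* rose, *Wnt3* fell, and *Wnt2b* and *Wnt11* did not pass. The median log2 fold change of the 8 was 1.73 and that of all genes tested 0.007. The full ranges of the 2 stages overlapped for all 8, and 2.37% of all genes tested did not overlap. Between E5.5 and E6.5 in WT, with 2 libraries at E5.5, 1 of 8 ligands passed, *Wnt5b*, which was higher, where 5.15% of 20763 genes were called.

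**Figure D2:**
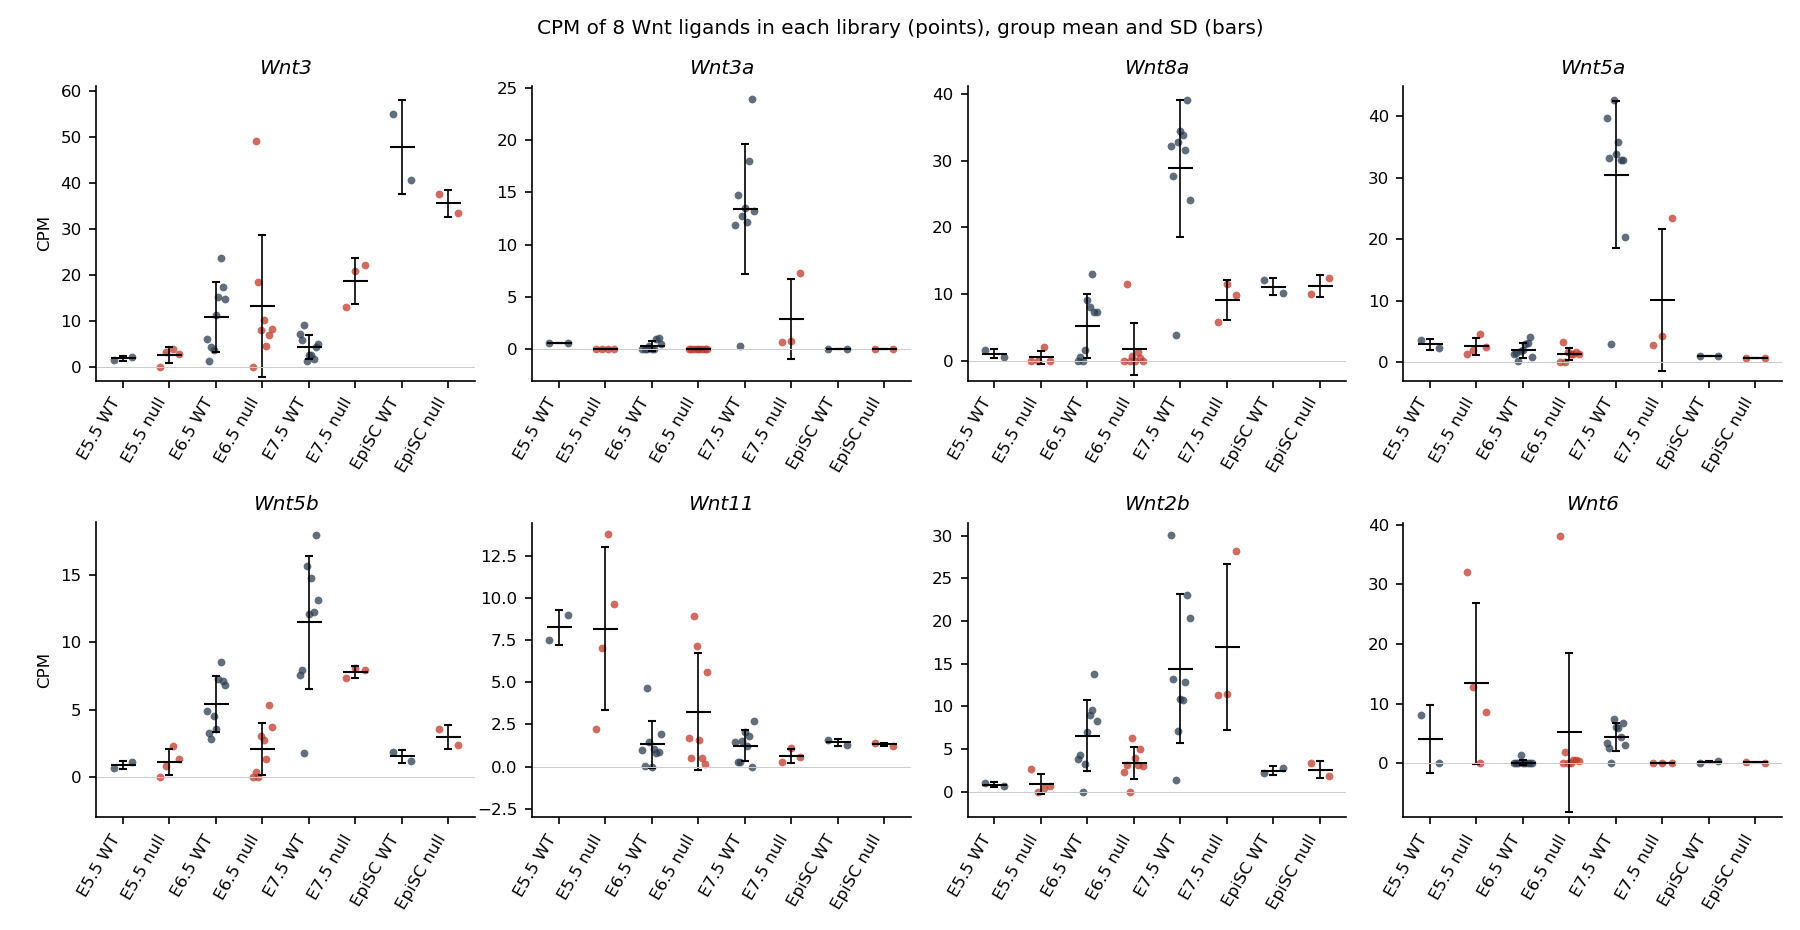
Each panel gives the CPM of 1 ligand in every library (points; dark for WT, red for null), by stage and genotype, with bars for the group mean and SD. The E7.5 WT epiblasts other than WT 3 lie at 11.9 to 23.9 CPM of *Wnt3a* and 24.1 to 39.2 CPM of *Wnt8a*, above every other epiblast library, while for *Wnt3* the 3 E7.5 null epiblasts at 13.04 to 22.1 CPM lie above all 9 E7.5 WT.

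*Wnt3* (ENSMUSG00000000125.5, chromosome 11 of GRCm38, 103774150 to 103817957, plus strand), the ligand required for streak formation, was counted at 1.47 and 2.21 CPM in E5.5 WT. It ran from 1.26 to 23.7 CPM in E6.5 WT (median 11.2) and from 1.19 to 9.02 CPM in E7.5 WT (median 4.39). E6.5 was thus the stage of highest median, with ranges that overlapped those of both neighbours. The log2 fold change from E6.5 to E7.5 in WT was -1.35 (standard error 0.47, edgeR adjusted p = 0.0390). In the E6.5 WT epiblasts under 40000000 counts the level was 3.61 CPM in WT 4 and 11.2 to 23.7 CPM in WT 5 to 9, and in those over 40000000 it was 1.26 to 6.18 CPM. Set against the E6.5 libraries under 40000000 counts alone, an alternative added after the data were seen, the change was -1.76 (edgeR adjusted p = 0.00404). Over all libraries the call was lost without any 1 of 11 libraries, E6.5 WT 5 to 9 and E7.5 WT 4 to 9, at edgeR adjusted p up to 0.0865.

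At E7.5 the null epiblasts stood above WT, at 13.04, 20.9 and 22.1 CPM in null 1, 2 and 3, and no WT epiblast reached the lowest of them. *Wnt3* was the 1 ligand of 8 without overlap, where 3.84% of all genes tested did not overlap. The call separated 2 of the 8 ligands between null and WT at E7.5, *Wnt3* higher in null and *Wnt6* lower, where 1.17% of the 19680 genes tested were called (16 higher, 215 lower). *Wnt3* differed by a log2 fold change of 2.14 (standard error 0.45, edgeR adjusted p = 0.0337), from means of 18.7 ± 4.92 CPM (SD, n = 3) and 4.42 ± 2.62 CPM (SD, n = 9). A two-sided exact permutation test of log2 CPM over the 220 splits gave p = 0.00455, the smallest they can give, in a family of 16 such tests over the 8 ligands at E6.5 and E7.5. The direction held in all 12 fits that left out 1 library (2.01 to 2.37), but the call was lost without null 1, 2 or 3 or without WT 5, 6, 7 or 8, at edgeR adjusted p of 0.0552 to 0.157. The 8 epiblast markers summed to 4499 to 6244 CPM in E7.5 null and 1221 to 6058 CPM in E7.5 WT, highest in WT 3, which also had the most *Wnt3* of the WT epiblasts (9.02 CPM), and their part in the difference was not tested. The 8 primitive streak and mesoderm markers summed to 477 to 733 CPM in E7.5 null and 201 to 455 CPM in E7.5 WT, without overlap, and their part was not tested either. Of these 8, 5 had a higher mean in null, led by *Eomes* (383 against 33.2 CPM, edgeR adjusted p = 0.109), 3 had a lower one, such as *Tbx6* (4.03 against 27.4 CPM, edgeR adjusted p = 0.145), and none passed. *Wnt3* lies 2.84 Mb from *Stat3* on chromosome 11, and a nearby allele would often be inherited with the null allele; the part of such linkage in its level was not tested.

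*Wnt3a* (ENSMUSG00000009900.7, chromosome 11, 59248033 to 59290752, minus strand), which sustains the streak and the presomitic mesoderm, was near absent before E7.5. It stood at 0.598 and 0.639 CPM in E5.5 WT and at 0 in 5 of 9 E6.5 WT epiblasts, with 1.09 CPM as the highest. In E7.5 WT it ran from 0.279 CPM in WT 3 to 23.9 CPM (median 13.2), and the other 8 all exceeded each E6.5 library. The log2 fold change of 5.35 (standard error 1.01, edgeR adjusted p = 0.000766) kept its call in each of the 28 alternatives run. In null epiblasts it was 0 in all 4 at E5.5 and all 8 at E6.5, and 0.667, 0.754 and 7.27 CPM at E7.5. Null 3 thus stood apart from null 1 and 2 and still lay below the 8 WT epiblasts other than WT 3. The E7.5 difference was -2.11 (standard error 0.997, edgeR adjusted p = 0.270; exact permutation p = 0.0727) and did not pass. Without null 3 it was -4.14 (edgeR adjusted p = 0.129), and without WT 3 it was -2.28 and passed (edgeR adjusted p = 0.0347), in a fit that called 5.68% of 19462 genes and 4 of the 8 ligands.

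*Wnt8a* (ENSMUSG00000012282.2, chromosome 18, 34542313 to 34548273, plus strand), a β-catenin-activating ligand of the streak, was the most abundant of the 8 per length in E7.5 WT. It was counted at 0.562 and 1.54 CPM in E5.5 WT, at 0 to 12.99 CPM in E6.5 WT (median 7.34) and at 3.85 to 39.2 CPM in E7.5 WT (median 32.2). All E7.5 WT epiblasts but WT 3 exceeded every E6.5 WT epiblast. The log2 fold change was 2.41 (standard error 0.84, edgeR adjusted p = 0.0432), a call kept without E6.5 WT 1, 3 or 7 or E7.5 WT 3 and lost without any other 1 of the 18 libraries, at edgeR adjusted p up to 0.0707. E7.5 null 1, 2 and 3 stood at 5.80, 11.5 and 9.91 CPM, between WT 3 and the other WT epiblasts. The difference of -1.58 (standard error 0.49) had an edgeR adjusted p of 0.0989 and an exact permutation p of 0.0273, which was 0.0545 to 0.0909 without any 1 of the null epiblasts. It passed without WT 3 (-1.73, edgeR adjusted p = 7.57e-05), with DESeq2 (-1.60, adjusted p = 0.00296) and with voom and sample weights (-1.71, adjusted p = 0.0135).

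*Wnt5a* (ENSMUSG00000021994, chromosome 14, 28504750 to 28527448, plus strand), a ligand of Ror receptors, stood at 2.32 and 3.57 CPM in E5.5 WT. Its range in E6.5 WT was 0.203 to 4.09 CPM (median 1.81) and in E7.5 WT 2.99 to 42.7 CPM (median 33.2). Neighbouring stages E5.5 and E6.5 overlapped, and of the E7.5 WT epiblasts WT 3 alone lay within the E6.5 range. The rise to E7.5 of 3.90 on the log2 scale (standard error 0.48, edgeR adjusted p = 2.05e-05) was called in all 28 alternatives. At E7.5 null 1 and 2 had 2.84 and 4.20 CPM and null 3 had 23.4 CPM, inside the WT range. The difference was -1.501 (standard error 0.76, edgeR adjusted p = 0.311; exact permutation p = 0.0273, and 0.0909 without null 1 or 0.0727 without null 2). Without null 3 it was -3.03 (edgeR adjusted p = 0.121), and it passed with voom and sample weights (-2.59, adjusted p = 0.0159). *Wnt5a* shares 383 exon bases with the antisense gene *Gm2670*, and the strand setting of the counting is not given in the sources used here.

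*Wnt5b* (ENSMUSG00000030170.14, chromosome 6, 119432531 to 119544347, minus strand), its close relative, had medians that climbed at each stage. It stood at 0.639 and 1.09 CPM in E5.5 WT, at 2.78 to 8.50 CPM in E6.5 WT (median 4.89) and at 1.77 to 18.0 CPM in E7.5 WT (median 12.2). No E6.5 WT epiblast overlapped E5.5 WT, and the log2 fold change was 2.68 (standard error 0.58, edgeR adjusted p = 0.0126). That call was lost without E5.5 WT 1 (edgeR adjusted p = 0.224) and with voom and sample weights (2.78, adjusted p = 0.0959). *Wnt5b* and *Wnt11*, 2 of the 8 ligands, did not overlap between E5.5 and E6.5 WT, where 16.6% of all genes tested did not. The step from E6.5 to E7.5 was 1.003 (standard error 0.32, edgeR adjusted p = 0.0232), at the edge of the call, which was lost without any 1 of E6.5 WT 1 to 5 or E7.5 WT 4 to 9 as the fold change fell to 0.90 at the lowest. Against the E6.5 libraries under 40000000 counts it was 0.78 (edgeR adjusted p = 0.0974). At E7.5 the 3 null epiblasts were close together at 7.31, 8.08 and 7.97 CPM, inside the WT range, with a difference of -0.47 (standard error 0.44, edgeR adjusted p = 0.652).

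*Wnt11* (ENSMUSG00000015957.12, chromosome 7, 98835112 to 98855195, plus strand), a further ligand of cell movement, was highest at the earliest stage. It stood at 7.52 and 8.9998 CPM in E5.5 WT and at 0 to 4.64 CPM in E6.5 WT (median 1.001), with no overlap, and at 0 to 2.68 CPM in E7.5 WT (median 1.45). The log2 fold change from E5.5 to E6.5 was -2.61 (standard error 1.06, edgeR adjusted p = 0.153), which did not pass. The highest E6.5 WT value belonged to WT 3, the library with 5338 CPM of visceral endoderm markers, and without it the change was -3.22 (edgeR adjusted p = 0.0317). With voom and sample weights the change also passed (-4.02, adjusted p = 0.00888). The 10 visceral endoderm markers summed to 5217 and 6863 CPM in the E5.5 WT epiblasts and to 48.4 to 5338 CPM in E6.5 WT. Across the 35 epiblast libraries log2 *Wnt11* and the log2 summed list had r = 0.564, as a description. The part of these markers in the *Wnt11* level was not tested. E7.5 null epiblasts had 0.272, 1.08 and 0.552 CPM, within the WT range. *Wnt11* shares 364 exon bases with the pseudogene *Gm8398* on the other strand.

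*Wnt2b* (ENSMUSG00000027840.5, chromosome 3, 104945272 to 104961921, minus strand), a β-catenin-activating ligand better known from later organs, had 0.633 and 1.02 CPM in E5.5 WT. It ran from 0 to 13.8 CPM in E6.5 WT (median 6.94) and from 1.37 to 30.02 CPM in E7.5 WT (median 12.8). The single 0 at E6.5 was WT 3. Neither step passed, with log2 fold changes of 3.004 (standard error 1.45, edgeR adjusted p = 0.241) and 1.06 (standard error 0.62, edgeR adjusted p = 0.238). Without E6.5 WT 3 the first was 3.13 and passed (edgeR adjusted p = 0.00367). The E7.5 null epiblasts stood at 11.3, 11.4 and 28.2 CPM, spread over the WT range, and differed from WT by 0.33 (standard error 0.61, edgeR adjusted p = 0.860).

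*Wnt6* (ENSMUSG00000033227.7, chromosome 1, 74771892 to 74785322, plus strand) had the least regular pattern. It stood at 8.08 and 0 CPM in E5.5 WT, at 0 in 8 of 9 E6.5 WT epiblasts and at 2.64 to 7.37 CPM in 8 of 9 E7.5 WT, with 0 in WT 3. From E6.5 to E7.5 it rose by 4.72 on the log2 scale (standard error 1.30, edgeR adjusted p = 0.0108). The E6.5 side of that fold rested on WT 4 alone, at 1.40 CPM. Without 1 library the fitted value ran from 4.53 to 10.3, the last without WT 4, when every E6.5 WT epiblast was at 0, and the call was kept each time. In null epiblasts it was 32.1, 12.8, 0 and 8.67 CPM at E5.5. At E6.5 it was 38.0 CPM in null 1 and 0 to 1.94 CPM in the other 7, and at E7.5 it was 0 in all 3. The E7.5 WT mean, with WT 3 at 0 included, was 58.3-fold the floor of 3 counts per library in E7.5 null. The edgeR adjusted p was 0.0330 (exact permutation p = 0.0182). The call was lost without null 1, 2 or 3 or without WT 1, 4, 5, 6, 7 or 8, at edgeR adjusted p of 0.0542 to 0.154, and also with voom and sample weights (adjusted p = 0.123). The permutation p was 0.0545 without any 1 of the null epiblasts.

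The 2 libraries with the most *Wnt6*, E5.5 null 1 and E6.5 null 1, also had the highest sums over the 10 extraembryonic ectoderm markers, 983 and 672 CPM. The same list came to 7.93 to 16.6 CPM in E7.5 null and 7.22 to 120 CPM in E7.5 WT epiblasts, lowest in WT 3, which also had no *Wnt6*. The list did not move as 1 from E6.5 to E7.5 in WT. Of its 10 genes 6 were tested, with *Cdx2* and *Sox21* called higher and *Tex19.1* lower, beside 8.83% of all genes tested. Between null and WT at E7.5, 7 were tested and 0 called, beside 1.17% of all genes tested. Across the 35 epiblast libraries log2 *Wnt6* and the log2 summed list had r = 0.804, as a description of libraries that share stage and dissection. The 10 visceral endoderm markers summed to 37.8 to 248 CPM in E7.5 null and to 382 to 4350 CPM in E7.5 WT, without overlap. All 10 were lower in null (median log2 fold change -3.69), and *Afp* and *Trf* were called, beside 1.17% of all genes tested. Both calls were lost without any 1 of the null epiblasts. The part of either marker list in the *Wnt6* difference was not tested.

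**Figure D3:**
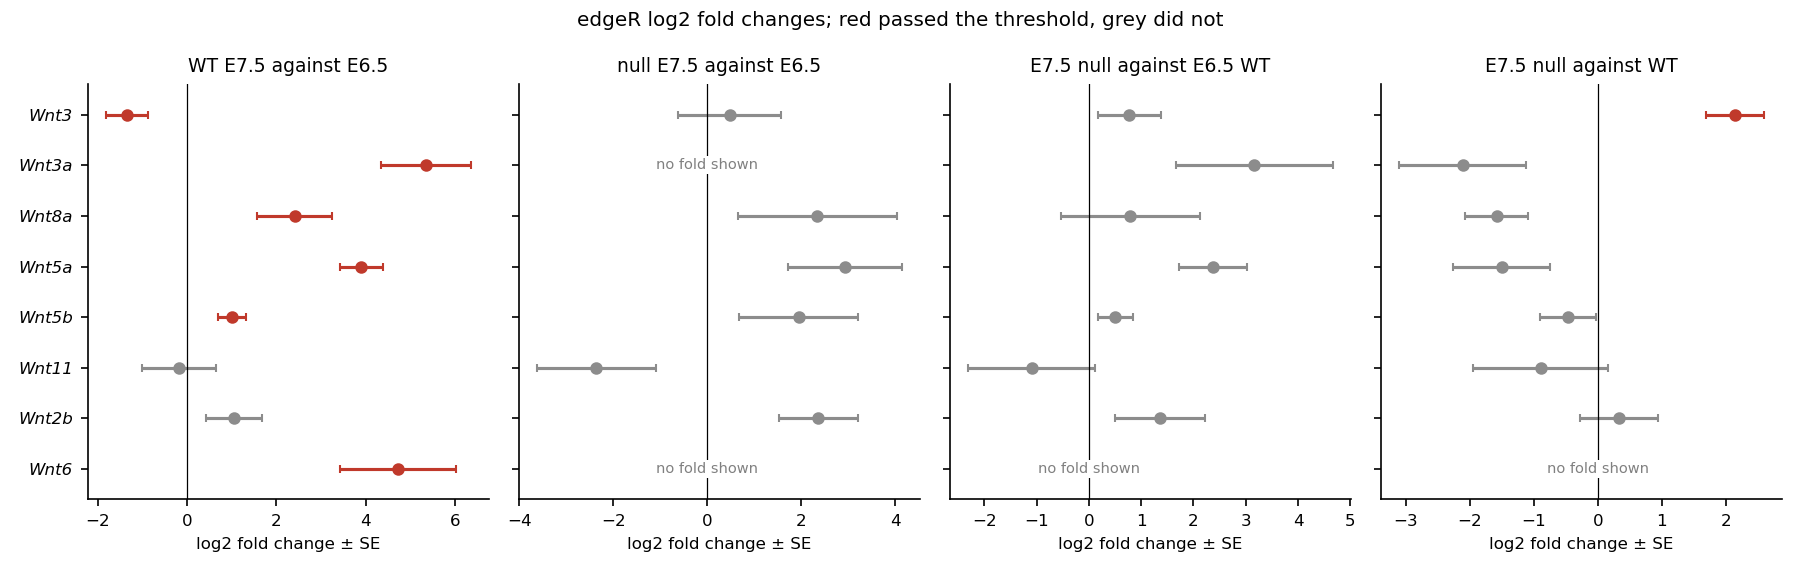
Points are edgeR log2 fold changes of the 8 ligands in 4 comparisons and bars are standard errors; red passed the call and grey did not. *Wnt3* lies at -1.35 in the WT step from E6.5 to E7.5 and at 2.14 between null and WT at E7.5, the reverse of the signs of *Wnt3a* (5.35 and -2.11); no fold is drawn where 1 group was at 0 in every library or the gene was not tested.

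The E7.5 null epiblasts were next set against the WT epiblasts of the day before, since the study asked whether null embryos trail WT embryos in development. None of the 7 ligands tested passed the call, where edgeR called 0.162% of 19749 genes. At an unadjusted p under 0.05, 1 ligand and 1752 genes passed, and DESeq2 called 1 ligand, *Wnt5a*. The log2 fold change was 0.78 for *Wnt3* (standard error 0.60), 0.80 for *Wnt8a* (standard error 1.32) and 0.51 for *Wnt5b* (standard error 0.33). A change in either direction was within the error of *Wnt8a*. *Wnt5a* had the smallest p of the 7, at 2.37 (standard error 0.65, edgeR adjusted p = 0.190), with null 2 and 3 above all 9 E6.5 WT epiblasts. Without null 3 it was 0.84 (edgeR adjusted p = 1.0). *Wnt3a* at 3.17 (standard error 1.498, edgeR adjusted p = 0.569) was above them in null 3 alone. The E7.5 null libraries enter both this comparison and that with E7.5 WT, so the comparisons are not independent.

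**Figure D4:**
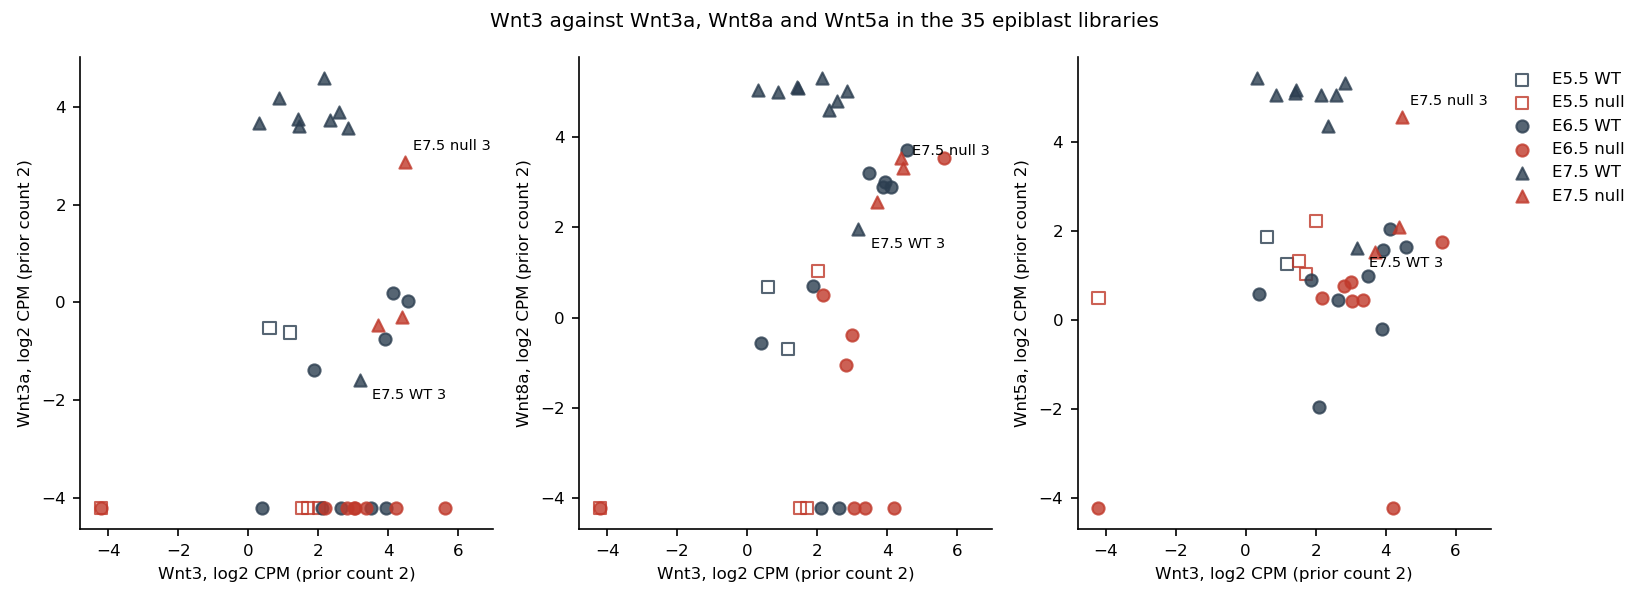
Each point is 1 of the 35 epiblast libraries, with log2 CPM of *Wnt3* on the x axis and of *Wnt3a*, *Wnt8a* or *Wnt5a* on the y axis (prior count 2; libraries at 0 lie at -4.21). E7.5 WT epiblasts gather at high *Wnt3a*, *Wnt8a* and *Wnt5a* and low *Wnt3*, while E7.5 WT 3 and E7.5 null 1 and 2 lie near the E6.5 libraries and E7.5 null 3 joins high *Wnt3* (22.1 CPM) to *Wnt5a* of 23.4 CPM.

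Within the null genotype the step from E6.5 to E7.5 called none of the 8 ligands, where edgeR called 0.103% of 19460 genes. At an unadjusted p under 0.05, 4 ligands and 1582 genes passed, and voom with sample weights called 3 ligands. *Wnt2b*, *Wnt3a* and *Wnt5b*, 3 of the 8, did not overlap between the stages, as did 5.9% of all genes tested. *Wnt3a*, at 0 in all 8 at E6.5, was at least 34.9-fold higher at E7.5. With only the 5 E6.5 null epiblasts under 40000000 counts, an alternative added after the data were seen, 0.972% of 18626 genes and 4 ligands passed, all higher at E7.5, *Wnt5a* (2.81), *Wnt2b* (2.02), *Wnt3a* and *Wnt3* (1.31, edgeR adjusted p = 0.0417). Whether the step of *Wnt3* differed between the genotypes was tested by the interaction of genotype and stage. Over all libraries it gave 1.82 (standard error 1.09, edgeR adjusted p = 0.488), which did not pass. With the E6.5 libraries under 40000000 counts alone it gave 3.06 (edgeR adjusted p = 0.00611), and with voom and sample weights 3.54 (adjusted p = 0.0147).

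Over all libraries the interaction called none of the 8 ligands, where 0.443% of 22122 genes were called. At an unadjusted p under 0.05, 2 ligands and 3129 genes passed by edgeR, and DESeq2 called 1 ligand, *Wnt6*. *Wnt6* came closest (edgeR adjusted p = 0.0840), and it passed without E7.5 WT 3 (edgeR adjusted p = 0.0395). With the E6.5 libraries under 40000000 counts alone, 3.84% of 21397 genes and 2 ligands, *Wnt3* and *Wnt6*, passed. *Wnt3a* had an edgeR adjusted p of 0.290.

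At E6.5 itself null and WT differed by no called ligand among the 6 tested, where edgeR called 0% of 17095 genes. At an unadjusted p under 0.05, 0 ligands and 1414 genes passed, and DESeq2 called 0 ligands. The genotypes overlapped in all 6 of these ligands, and 0.0585% of all genes tested did not overlap. *Wnt3* was 0 to 49.1 CPM in null (median 8.09) and 1.26 to 23.7 CPM in WT (median 11.2). Its 2 extremes in null were null 1 at 0 and null 2 at 49.1 CPM, both in libraries that stood apart, and the fold change of 0.31 (standard error 0.76) turned to -0.43 without null 2 and to -0.93 (edgeR adjusted p = 0.250) within the libraries under 40000000 counts. *Wnt8a* was 0 to 11.4 CPM in null (median 0.215) and 0 to 12.99 CPM in WT (median 7.34), a difference of -1.53 (standard error 1.41, edgeR adjusted p = 0.873). Under 40000000 counts, the 5 null epiblasts had 0 to 1.36 CPM of *Wnt8a* and the 6 WT had 1.56 to 12.99 CPM, without overlap (2% of genes tested did not overlap there), at -3.95 (edgeR adjusted p = 0.0841).

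*Wnt5b* was 0 to 5.30 CPM in E6.5 null (median 2.02) and 2.78 to 8.50 CPM in E6.5 WT (median 4.89). Over single log2 CPM values the exact permutation p was 0.00243, and 0.000787 to 0.00839 without any 1 library, whereas edgeR gave -1.44 (standard error 0.82, adjusted p = 0.715 over all genes). The null values under 1 CPM were 0 in null 1, 0.321 CPM in null 2 and 0 in null 3, the libraries over 40000000 counts, and among libraries under 40000000 counts alone the fold change was -0.99 (edgeR adjusted p = 0.171). *Wnt3a* and *Wnt6* reached the minimum count in too few libraries to be tested by edgeR. *Wnt3a* was at 0 in 8 of 8 null and 5 of 9 WT epiblasts (exact permutation p = 0.0824). *Wnt6* was above 0 in 5 of 8 null and 1 of 9 WT epiblasts (exact permutation p = 0.0498). That p was above 0.05 without any 1 of null 1, 3, 6, 7 or 8 or of the 8 WT epiblasts other than WT 4, at 0.0769 to 0.0913. *Wnt11* ran from 0.143 to 8.92 CPM in null and 0 to 4.64 CPM in WT, and *Wnt2b* from 0 to 6.25 and 0 to 13.8 CPM, neither past the threshold. The 3 null epiblasts above all WT in *Wnt11* were null 3, 4 and 8. They were also the null epiblasts with the highest visceral endoderm marker sums (6367, 4637 and 4066 CPM), whose part was not tested.

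At E5.5 none of the 8 ligands passed, where edgeR called 0% of 18690 genes. At an unadjusted p under 0.05, 1 ligand and 467 genes passed, and DESeq2 called 0 ligands. The ligand was *Wnt3a*, the only 1 of the 8 without overlap (11.5% of all genes tested did not overlap), at 0 in the 4 null and 0.598 and 0.639 CPM in the 2 WT epiblasts, so that WT was at least 6.35-fold higher (edgeR adjusted p = 0.999). *Wnt11*, the ligand of highest mean share in E5.5 WT, was 2.26, 7.06, 13.8 and 9.63 CPM in null, around the WT values of 7.52 and 8.9998 CPM. *Wnt8a* was above 0 in both WT epiblasts and in null 3 alone, at 1.98 CPM. *Wnt3* was 0 in null 1 and 2.82 to 4.001 CPM in the other 3, above both WT values.

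In EpiSCs the ligand make-up was narrow. *Wnt3* held 55.2% to 67.4% and *Wnt8a* 26.0% to 35.8% of the summed RPKM of the 8 in the 4 lines. *Wnt3* stood at 37.7 and 33.6 CPM in null lines 2 and 6 and at 55.2 and 40.7 CPM in WT lines 8 and 13, each above every epiblast library except E6.5 null 2 at 49.1 CPM. *Wnt8a* stood at 9.99 and 12.4 CPM in null and 12.1 and 10.2 CPM in WT, near the E7.5 null epiblasts. *Wnt3a* was at 0.0436 CPM in null line 6 and at 0 in the other 3 lines. *Wnt5a* stayed at 0.662 to 1.02 CPM, *Wnt11* at 1.24 to 1.60 CPM, *Wnt2b* at 1.85 to 3.31 CPM and *Wnt6* at 0.0999 to 0.329 CPM. The 2 tables come from different library kits, and no test was made between them.

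Between null and WT lines none of the 7 ligands tested passed, where edgeR called 0.106% of 20736 genes. At an unadjusted p under 0.05, 2 ligands and 1885 genes passed, and DESeq2 called 0 ligands. *Wnt3* differed by -0.45 (standard error 0.17, edgeR adjusted p = 0.515) and *Wnt5b*, at 3.56 and 2.35 against 1.87 and 1.18 CPM, by 0.93 (standard error 0.36, edgeR adjusted p = 0.506). These and *Wnt5a* (-0.57, standard error 0.33, edgeR adjusted p = 0.727) did not overlap between the genotypes. With 2 lines against 2, these 3 of 7 ligands stood beside 40.2% of all genes tested that did not overlap.

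Other parts of the Wnt machinery were read from lists of genes. They were the secretion factors *Porcn* and *Wls* together with *Notum*, receptors, secreted inhibitors, R-spondins with their receptors, relay proteins and response genes. From E6.5 to E7.5 in WT, 5 of the 16 receptors and co-receptors tested rose and 0 fell, where 8.83% of all 17191 genes tested were called. The median log2 fold change of these receptors was 0.43, beside 0.007 for all genes tested. Those that rose included *Ror2* (17.9 to 90.8 CPM in the group means, log2 fold change 2.26), *Fzd10* (3.34 to 32.6 CPM, 3.20) and *Fzd1* (3.78 to 14.3 CPM, 1.84). *Ror2* encodes a receptor of Wnt5a. *Fzd7*, the most abundant of the list, was not called. *Wls*, the carrier that brings Wnt proteins to the cell surface, rose from 13.01 to 77.8 CPM (2.48, edgeR adjusted p = 2.73e-05), the only call among the 2 genes tested of its list.

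The next lists are from the same step, in which 8.83% of all genes tested were called. Of 7 R-spondin and receptor-turnover genes tested 3 rose and 1 fell. *Rnf43*, a ligase that removes Frizzled from the membrane, rose by 3.19 on the log2 scale, *Rspo3*, an R-spondin, by 2.78 and *Lgr5*, an R-spondin receptor, by 3.98, while its relative *Lgr4* fell from 57.3 to 27.6 CPM (-1.13). Of 7 genes tested from the list of secreted inhibitors 4 rose and 0 fell. *Frzb* (2.50), *Cer1* (2.82) and *Sfrp1* (1.17) had the smallest p, and *Dkk3* was the other. Whether each of these acts on Wnt proteins in the epiblast was not tested. Of 8 response genes tested 2 rose, *Nkd1* (3.20) and *Tbx6* (3.94), and of 14 relay genes none passed. Of 4 further Wnt ligands tested *Wnt2* rose, to 2.52 CPM.

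At E7.5, 4 genes of these lists passed between null and WT, each lower in null, as were 215 of the 231 genes called in all (1.17% of those tested). All 4 calls were lost without any 1 of the 12 libraries other than WT 3, at edgeR adjusted p up to 0.196, and without null 2 edgeR called 0 genes (2749 at an unadjusted p under 0.05). *Fzd10* was 2.33 to 3.18 CPM in null and 1.49 to 46.1 CPM in WT (-3.45, standard error 0.75, edgeR adjusted p = 0.0435), 1 of 16 receptors tested. *Rspo1* was 3.63 to 5.61 against 4.53 to 17.3 CPM (-1.35, edgeR adjusted p = 0.0445), 1 of 8 R-spondin and turnover genes. *Notum* was 0 in all 3 null and up to 12.4 CPM in WT, at least 89.8-fold higher. It removes the lipid from Wnt proteins and was 1 of 3 genes on its list, in which the secretion factors *Porcn* and *Wls* were not called. *Msgn1*, a paraxial mesoderm gene that Wnt3a is known to activate, was 0 in all 3 null and up to 27.5 CPM in WT, at least 220.0-fold higher, 1 of 10 response genes. In each of these, WT 3 lay at the bottom of the WT range. *Axin2*, a feedback gene of the pathway, was 70.3 to 100 CPM in null and 44.6 to 194 CPM in WT and was not called.

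*Wls* was 19.14 to 33.8 CPM in E7.5 null and 14.7 to 110 CPM in E7.5 WT, and its change from E6.5 to E7.5 was smaller in null than in WT by 2.19 on the log2 scale (interaction, standard error 0.52, edgeR adjusted p = 0.0456). That call was lost without 22 of the 29 libraries in turn, each E7.5 null epiblast among them (edgeR adjusted p up to 0.214), and without E7.5 null 1 or 2 edgeR called 0 genes (2550 and 2484 at an unadjusted p under 0.05). Against E6.5 WT, E7.5 null epiblasts had passed calls in *Ror2* (46.5 against 17.9 CPM, 1.36, edgeR adjusted p = 0.0398) and *Lgr4* (28.2 against 57.3 CPM, -1.05, edgeR adjusted p = 0.0364). Over all genes tested, 0.162% were called there. Both genes were without overlap, as were 4.56% of all genes tested. Both calls were lost without any 1 of the null epiblasts or of several E6.5 WT epiblasts (WT 2, 4, 5, 6, 7 or 9 for *Ror2* and WT 1, 2, 5, 6 or 9 for *Lgr4*), at edgeR adjusted p up to 0.263. *Lgr4* averaged 27.6 CPM in E7.5 WT. From E5.5 to E6.5 in WT edgeR called 5.15% of 20763 genes. Of 16 receptors 3 rose, *Fzd2* (2.28), *Ror2* (2.02) and *Fzd3* (1.49), together with 3 of 14 relay genes, the polarity genes *Celsr1* (1.40), *Vangl2* (1.20) and *Prickle1* (2.18). Of these 6 calls only that of *Fzd2* was kept without E5.5 WT 1.

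Finally, the ligands were compared with each other and with all 24126 genes by Pearson's r of log2 CPM over the 35 epiblasts, as a description of libraries that share stage and depth. *Wnt3a* and *Wnt5a* ran closest together (r = 0.817), followed by *Wnt3a* with *Wnt8a* (0.784) and *Wnt5a* with *Wnt8a* (0.782). *Wnt3* was not tied to *Wnt3a* (0.041) and ran against *Wnt6* (-0.667). The libraries with the most *Wnt6*, E5.5 null 1 and E6.5 null 1, had no *Wnt3* counts and the highest sums of extraembryonic ectoderm markers. *Wnt11* ran against *Wnt2b* (-0.545).

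Across all genes the most similar to *Wnt8a* were *Axin2* (0.880), *Cxx1b* (0.866) and *Foxb1* (0.857), and to *Wnt3a* *Col9a1* (0.943), *Cd248* (0.919) and *Sh3pxd2a* (0.917). For *Wnt5a* they were *Zfp704* (0.890), *Snord15b* (0.866) and *Cxx1a* (0.845), for *Wnt5b* *Prdx2* (0.896), *Sh3gl2* (0.875) and *Arhgap24* (0.872), and for *Wnt3* *Pacs2* (0.840), *Cdc14b* (0.790) and *Nfib* (0.779). For *Wnt2b* they were *Fes* (0.935), *Bcl7c* (0.871) and *Tnks1bp1* (0.867), for *Wnt6* *Ahnak* (0.883), *Fgfr2* (0.881) and *AU015836* (0.871), and for *Wnt11* *Gng12* (0.776), *Zc3hav1* (0.766) and *Smlr1* (0.764). With the 20 WT libraries alone the first-named gene was still among the first 3 for 1 of the 8 ligands, *Wnt2b*.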

How the data were processed

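The authors deposited whole-number read counts per gene, 1 table for the 35 single epiblasts and 1 for the 4 EpiSC lines. Per the labels, reads were trimmed with Trim Galore, aligned with HISAT2 to GRCm38 and quantified with StringTie; the annotation release and strand setting are not given in the sources used here. Epiblast libraries were made with a stranded total RNA kit for picogram inputs and EpiSC libraries from ribosome-depleted RNA, so the tables were tested apart.

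Counts were scaled by TMM (factors 0.928 to 1.06), filtered by edgeR's filterByExpr (minimum count 10, total 15) and tested by edgeR 4.0.16's robust quasi-likelihood test, adjusted over all genes tested, in R 4.3.3. The standard error is the log2 fold change over the square root of F. Alternatives used DESeq2 1.42.0 and limma 3.58.1 (voom). Log2 CPM used a prior count of 2, and RPKM used the exon union of GENCODE vM21, in which 47224 of 47643 gene IDs were found. Figures were drawn with matplotlib 3.10.9. The fits were tried on simulated counts for null against WT at E6.5, at E7.5 and in EpiSCs alone. Those counts left out genes of low mean count and had the same spread for every gene. They therefore do not show how the fits treat ligands that dropped out of single libraries. The members and lists were chosen with earlier results of these data known. Named genes were the 8 ligands, list genes past the call, and the 3 genes of highest r. No separate litters are stated, so p-values measure the spread between these epiblasts or lines.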

Additional observations from a re-analysis of the deposited data

Results flagged for a closer look

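The highest or lowest library of each ligand was tested against the rest of its group by Dixon's criterion in 32 groups of 4, 8 or 9 libraries, and 12 were set apart. Its nominal rate of 1 in 20 is for normal values without ties. Many values here tied at 0 and the 32 tests shared libraries, so the 12 cannot be set against that rate. Values are log2 CPM, on which a count of 0 lies at -4.205. Of the 12, 6 were in E7.5 WT 3, each the lowest of its group. They were *Wnt3a* at -1.587 (0.279 CPM, others 11.9 to 23.9), *Wnt8a* at 1.965 (3.85 CPM, others 24.1 to 39.2), *Wnt5a* at 1.606 (2.99 CPM, others 20.3 to 42.7), *Wnt5b* at 0.8698 (1.77 CPM, others 7.59 to 18.0), *Wnt2b* at 0.508 (1.37 CPM, others 7.10 to 30.02) and *Wnt6* at -4.205 (0 CPM, others 2.64 to 7.37).

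*Wnt2b* was at -4.205 in E6.5 null 3 (others 2.25 to 6.25 CPM) and in E6.5 WT 3 (others 3.26 to 13.8 CPM). *Wnt3* was at -4.205 in E5.5 null 1 (others 2.82 to 4.001 CPM) and in E6.5 null 1 (others 4.47 to 49.1 CPM). *Wnt6* in E6.5 WT 4 was at 0.536 (1.40 CPM) and *Wnt8a* in E5.5 null 3 at 1.027 (1.98 CPM), where the other libraries of the group were all at 0. In such a group any single value above 0 is set apart.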

How the results depend on the processing

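Over the results of single ligands, 500 values came from other tools, filters, scalings and library sets, of which 12 changed sign. At E5.5, in EpiSCs and in the interaction only some ligands entered. They were those with an unadjusted edgeR p under 0.05 or without overlap, and *Wnt3* in the interaction. The number of ligands called between null and WT at E7.5 was 2, and 3 with DESeq2 (*Wnt6*, *Wnt3* and *Wnt8a*), 3 with voom (*Wnt5a*, *Wnt3* and *Wnt8a*), 0 with the replicate block and 0 with all 35 epiblasts in 1 fit. From E5.5 to E6.5 in WT it was 1 (*Wnt5b*), and 1 with voom (*Wnt11*), 4 with DESeq2, 5 with the E6.5 libraries under 40000000 counts, 0 with the replicate block and 0 with all 35 in 1 fit. From E6.5 to E7.5 it was 6 in WT and 2 with all 35 in 1 fit, and in null 0 against 3 with voom, 1 with all 35 in 1 fit and 4 with the E6.5 libraries under 40000000 counts. For E7.5 null against E6.5 WT it was 0, and 1 with DESeq2. For the interaction it was 0, and 1 with DESeq2, 2 with voom and 2 with the E6.5 libraries under 40000000 counts. Leaving out 1 library gave 0 to 4 at E7.5, 0 to 3 and 3 to 6 for the WT steps, 0 to 1 for the null step and the interaction, and 0 elsewhere. The cause of these shifts was not tested.

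Signs turned for *Wnt3* between null and WT at E6.5 (-0.43 to 0.54 without 1 library, -1.15 with voom, -0.33 with the replicate block, -0.93 under 40000000 counts; mean log2 CPM -0.94 to 0.46 without 1 library) and *Wnt5a* there (0.13 over 40000000 counts). At E7.5 they turned for *Wnt2b* (-0.25 to 0.55 without 1 library) and, with the replicate block, *Wnt5b* (0.73) and *Wnt11* (0.32). In WT they turned for *Wnt6* (-5.70 to 5.78 without 1 library) and *Wnt8a* (-2.78 with the replicate block) to E6.5, and for *Wnt11* to E7.5 (-0.39 to 0.40 without 1 library, 0.30 with voom, 0.21 with the replicate block, 0.20 under 40000000 counts). With voom they turned for *Wnt11* in E7.5 null against E6.5 WT (0.13) and *Wnt3a* in the interaction (-0.18). Same-numbered libraries had correlated deviations of -0.174 to 0.168 (12 of 13 pairs above 0, 3 over 0.1, the negative one at E7.5). Of 26 libraries, 12 correlated best with their own number, among the 2 to 9 libraries of the other genotype at their stage. The rate to be met without any pairing was not worked out, and what libraries of the same number shared was not tested. With the replicate block, *Wnt3* between null and WT at E7.5 was 1.37 (edgeR adjusted p = 0.899). At E6.5, numbers 1 to 3 were the libraries over 40000000 counts in both genotypes. No label says what a number stands for, so the block stands for no known pairing, and the EpiSC lines share no number.

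Over all genes, calls at E7.5 between null and WT went from 231 to 990 with DESeq2, 1198 with voom, 0 with the replicate block, 11 with all 35 in 1 fit and 0 to 1105 without 1 library. The WT steps called 1070 (1936 with DESeq2, 2131 with voom, 101 with the replicate block, 2698 under 40000000 counts) and 1518 genes (2805 unfiltered, 2610 with voom). The null step called 20 (296 with DESeq2, 437 with voom, 0 with the replicate block, 104 with all 35 in 1 fit), E7.5 null against E6.5 WT 32 (227, 315 and 81 with the first 3 of these, 184 under 40000000 counts), EpiSCs 22 (205 with DESeq2, 75 unfiltered) and the interaction 98 (595 with DESeq2, 1499 with voom, 22 with the replicate block, 35 unfiltered, 186 at a mean count of 50 or more, 59 with all 35 in 1 fit). Between null and WT, where edgeR called 0 genes, DESeq2 passed 14 (E5.5) and 28 (E6.5) and voom 92 (E6.5). Without 1 library the counts ran from 102 to 2029 and 1363 to 1902 for the WT steps, 0 to 32 for the null step, 4 to 88 for E7.5 null against E6.5 WT, 26 to 159 for EpiSCs and 0 to 482 for the interaction.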

Other observations

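Of 11 other Wnt ligands, *Wnt7b* had the highest mean over the epiblasts, 24.1 CPM, and 7 were tested between null and WT at E7.5, with 0 called and a median log2 fold change of -1.72, beside -1.20 for the 8 ligands and -0.02 for all genes tested by edgeR.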
